A study of Mus musculus with 8 samples.

Results

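Amyloid-DAM were the disease-associated microglia (DAM) that the study's authors set apart in their single-nucleus RNA sequencing of mouse brain, and their members were taken from that annotation. Nuclei labelled AD_DAM in the table of microglia and macrophages were counted as members. There were 586 of them among 2291 microglia and macrophage nuclei and 61949 nuclei in all. The 4 genotypes of the study were wild type (WT), Cnp-/-, 5xFAD and Cnp-/-;5xFAD, each with 2 libraries, and the tissue was a brain hemisphere freed of cerebellum and olfactory bulb. The mice were 6 months old, on the C57BL6/J strain. Cnp-/- animals lack a protein of the myelin sheath, 5xFAD animals carry mutant human amyloid precursor protein and presenilin transgenes driven by the neuronal Thy1 promoter, and Cnp-/-;5xFAD animals carry both. 566 amyloid-DAM nuclei came from the 4 libraries with 5xFAD, namely 184 and 127 from 5xFAD replicates 1 and 2 and 143 and 112 from Cnp-/-;5xFAD replicates 1 and 2. Amyloid-DAM were set against the 609 homeostatic microglia of the same libraries, of which there were 199, 150, 123 and 137 in that order. The methods do not say for these mice whether a replicate is 1 animal or a pool. The reporting summary speaks of pooled animals for the single-cell work as a whole. The p-values therefore concern these libraries, and not a known number of animals.

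Microglia are the resident macrophages of brain tissue. In the homeostatic state they express surveillance receptors such as the purinergic receptor P2ry12 and the fractalkine receptor Cx3cr1. Around amyloid plaques they take on the DAM state, first described by induction of Apoe, Trem2 and Tyrobp and, depending on the lipid receptor TREM2, of genes for lipid handling, lysosomes and phagocytosis. DAM are known for surrounding plaques and for taking up amyloid and cell debris.

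The 566 nuclei held 845192 unique molecular identifiers (UMIs, molecules counted once whatever their PCR copies), and the homeostatic nuclei 743929. Summed per library, amyloid-DAM profiles held 144790 to 280351 UMIs and homeostatic profiles 148048 to 246936. The median nucleus of amyloid-DAM held 1345, 1239, 1503 and 1127 UMIs in the libraries in the order given above, and that of homeostatic microglia 1157, 1012, 1338 and 1065. Amyloid-DAM nuclei were thus deeper in each library, and their medians of 1007, 956, 1100 and 873.5 detected genes were above the homeostatic medians of 867, 821, 1007 and 792. All 586 nuclei carried the label Microglia in the annotation of all nuclei, and 0 cell barcodes were shared between libraries among them. Levels are given in CPM, the UMIs of a gene per 1000000 UMIs of its summed profile, and values for a gene in 4 libraries follow the order 5xFAD replicates 1 and 2, then Cnp-/-;5xFAD replicates 1 and 2.

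The targeted gene followed the labels: in mature oligodendrocytes Cnp was at 219 and 265 CPM in 5xFAD, compared with 24.0 and 32.8 CPM in Cnp-/-;5xFAD. The general microglial markers were present in amyloid-DAM. The 12 listed markers of microglia all passed the filter on low counts, and their summed level was 15430 to 16610 CPM in amyloid-DAM and 16440 to 18430 CPM in homeostatic microglia. Markers of other cells were low. The 11 markers of border macrophages summed to 243 to 359 CPM against 266 to 462 CPM, with Pf4 and Lyve1 at 0 UMIs. The 10 markers of oligodendrocytes summed to 269 to 447 CPM against 257 to 354 CPM. Those of astrocytes summed to 195 to 667 CPM against 348 to 855 CPM and those of neurons to 0.0 to 92.7 CPM against 5.67 to 48.6 CPM, with Snap25 at 0 UMIs. The 8 markers of endothelial and mural cells summed to 221 to 303 CPM against 113 to 145 CPM, a difference that rests on Flt1 (167 of 217 UMIs, and 37 of 94 in homeostatic microglia). T cell markers gave 4 UMIs in amyloid-DAM and 1 in homeostatic microglia. Oligodendrocyte precursor markers gave 24 UMIs against 1, of which Cspg4, a proteoglycan also made by some activated myeloid cells, gave 20 and 1, while Pdgfra was at 0. The part of transcripts from such cells in the results below was not tested.

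Amyloid-DAM were found mostly in libraries with 5xFAD. They made up 0.0122% and 0.0% of all nuclei in WT replicates 1 and 2, 0.175% and 0.0567% in Cnp-/-, 2.47% and 1.76% in 5xFAD and 2.05% and 1.33% in Cnp-/-;5xFAD. Each of the 4 libraries with 5xFAD stood above each of the 4 without. The mean shares were 1.90 ± 0.483% (SD, n = 4) and 0.0609 ± 0.0797% (n = 4), a difference of 1.84 percentage points. The authors named the cluster with these libraries in view, so that this difference is given as a description, without a test. Of the microglia and macrophage nuclei, amyloid-DAM made up 37.4% in 5xFAD replicate 1 (Wilson 95% interval 33.2–41.8%), 37.4% in 5xFAD replicate 2 (32.4–42.6%), 35.4% in Cnp-/-;5xFAD replicate 1 (30.9–40.2%) and 29.7% in Cnp-/-;5xFAD replicate 2 (25.3–34.5%). In Cnp-/- the shares were 5.15% (3.09–8.45%) and 3.65% (1.57–8.26%), in WT replicate 1 0.503% (0.0888–2.79%), and WT replicate 2 held 0 of 70 nuclei, with a Wilson upper limit of 5.20% (4.29% by a floor of 3 counts). These intervals cover counting error only.

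No difference in the share of amyloid-DAM between Cnp-/-;5xFAD and 5xFAD could be detected with 2 libraries each. The share of all nuclei was 1.69 ± 0.509% in Cnp-/-;5xFAD and 2.12 ± 0.506% in 5xFAD (SD, n = 2), a difference of -0.43 percentage points that was smaller than either SD (two-sided exact permutation test, p = 0.667). Of microglia and macrophage nuclei the shares were 32.6 ± 4.02% and 37.4 ± 0.0354%, with every Cnp-/-;5xFAD library below both 5xFAD libraries (exact permutation test, p = 0.33). That is the smallest p which 2 against 2 libraries can reach. Relative to amyloid-DAM and homeostatic nuclei alone the sign turned, with a difference of 2.43 percentage points (exact permutation test, p = 1.0).

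**Figure D1:**
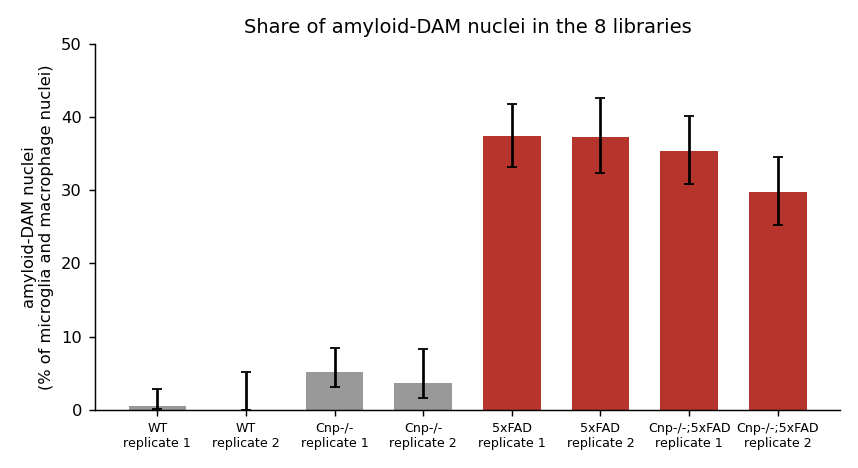
Share of amyloid-DAM nuclei in each of the 8 libraries, in percent of microglia and macrophage nuclei (bars, red with 5xFAD and grey without), with Wilson 95% intervals as lines. The 4 libraries with 5xFAD lie between 29.7% and 37.4%, and the 4 libraries without lie at or below 5.15%.

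In each library with 5xFAD, 4 of the 5 marker genes given for the population were at least 2-fold higher than in homeostatic microglia, as were 1.61% of the genes tested. Ctnna3, which encodes an alpha-catenin of cell junctions (ENSMUSG00000060843, chr10:63430098-65003667 in GRCm38), was at 1534, 1384, 1478 and 1216 CPM in amyloid-DAM and at 174, 151, 193 and 203 CPM in homeostatic microglia. Ank (chr15:27466677-27594909), a transporter of pyrophosphate and citrate out of the cell, was at 2005, 1752, 1843 and 1927 CPM against 328, 302, 227 and 277 CPM. The groups did not overlap for either gene, and each amyloid-DAM value was several times the highest homeostatic one. Cacna1a (chr8:84388440-84640246), the pore-forming subunit of the P/Q-type calcium channel, was at 1948, 1814, 1793 and 1658 CPM against 417, 429, 363 and 378 CPM. Lpl (chr8:68880491-68907448), the lipoprotein lipase that frees fatty acids from triglycerides, was at 232, 262, 237 and 318 CPM against 16.2, 58.0, 17.0 and 20.3 CPM. For Lpl the homeostatic profile of 5xFAD replicate 2 stood above the other homeostatic profiles, and still lay below all 4 amyloid-DAM profiles.

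As log2 fold changes with the library as a block, Lpl was 3.23 ± 0.27 (SE) higher, Ctnna3 2.98 ± 0.11, Ank 2.72 ± 0.10 and Cacna1a 2.19 ± 0.09. The fifth marker was much less particular. Apbb1ip (chr2:22774094-22875653), an adaptor that links Rap1 to integrin activation, was at 2269, 2311, 2134 and 2279 CPM against 1786, 1943, 1824 and 1702 CPM, a log2 fold change of 0.31 ± 0.07. All 4 amyloid-DAM values exceeded all homeostatic values, by far less than 2-fold. Because the nuclei were assigned by clustering these same counts, differences between the subpopulations are given as a description, without p-values. Cacna1a overlaps the antisense gene Gm16183 on the opposite strand and Ank overlaps Otulin, and their reads can be told apart only if counting used the strand, which the sources used here do not state.

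**Figure D2:**
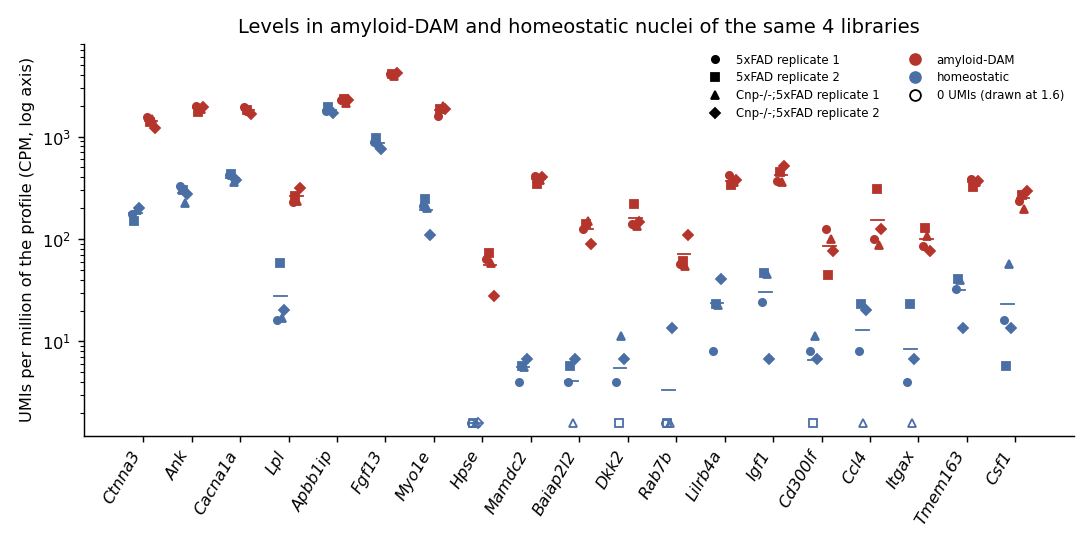
Levels on a log axis (CPM) of the 5 given markers, Fgf13, Myo1e and the 12 genes with the largest fold changes in the summed profiles of 4 libraries, amyloid-DAM in red beside homeostatic microglia in blue, with 1 symbol per library, a short line at the mean and open symbols for 0 UMIs. For Apbb1ip, at 2134 to 2311 CPM against 1702 to 1943 CPM, the points are close, and for the other genes the red and blue symbols lie far apart.

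Nucleus by nucleus, the markers were detected unevenly. A UMI of Cacna1a was found in 84.5% of amyloid-DAM nuclei and 37.0% of homeostatic nuclei, of Ank in 72.1% and 28.4%, of Ctnna3 in 43.1% and 18.7% and of Lpl in 22.4% and 2.46%. After thinning each nucleus to 725 UMIs, which left out 47 and 71 shallower nuclei, the shares were 70.5% and 24.1% for Cacna1a, 59.0% and 17.9% for Ank, 34.2% and 12.5% for Ctnna3 and 14.9% and 1.63% for Lpl. Thinned to the same depth, amyloid-DAM nuclei still showed each of the 4 genes more often. As background, mature oligodendrocytes, with a median of 1520.5 UMIs, showed Cacna1a in 1.26% and Lpl in 0.0681% of nuclei, below both microglial populations, but Ctnna3 in 83.8% (69.5% thinned) and Ank in 49.2% (28.7% thinned). Neurons, with a median of 9798 UMIs, showed Cacna1a in 97.8% of nuclei (47.4% thinned), Ctnna3 in 88.2% (27.8% thinned), Ank in 82.5% (14.9% thinned) and Lpl in 4.58% (0.288% thinned), so that a transcript of Ctnna3, Ank or Cacna1a is by itself no mark of microglia. At least 2 of Ctnna3, Ank, Cacna1a and Lpl were found together in 78.6% of amyloid-DAM nuclei, with a range of 75.0% to 81.9% over libraries, and in 20.9% of homeostatic nuclei, with a range of 16.8% to 25.1%. None of the 4 genes was found in 29 amyloid-DAM nuclei (5.12%) and in 230 homeostatic nuclei (37.8%).

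Ctnna3 was carried by few nuclei. The tenth of amyloid-DAM nuclei with the most Ctnna3, 57 nuclei, held 67.4% of its 1210 UMIs, and the highest nucleus held 82. The same share was 38.9% for Ank, 29.0% for Cacna1a and 67.4% for Lpl, a gene with far fewer UMIs. Ctnna3 is also strongly expressed in mature oligodendrocytes, where it was at 2090 ± 248 CPM (SD, n = 4 libraries). The 244 amyloid-DAM nuclei with a Ctnna3 UMI were deeper than the 322 nuclei without, with a median of 1467.5 UMIs against 1228.5, and their oligodendrocyte markers summed to 420 CPM against 331 CPM. In 5xFAD replicate 2 the sums went the other way, at 314 CPM against 552 CPM. When only nuclei without any UMI of the 10 oligodendrocyte markers were kept (358 amyloid-DAM and 450 homeostatic nuclei, an alternative chosen after seeing the data), Ctnna3 was at 792, 1088, 708 and 901 CPM against 167, 95.7, 175 and 202 CPM. Its log2 fold change was then 2.43 in place of 2.98, and that of Cacna1a 2.30. In the whole population the 10 oligodendrocyte markers gave 315 UMIs for 1210 of Ctnna3. Mature oligodendrocytes of the 4 libraries held 9.84 to 12.1 UMIs of these markers for each of Ctnna3. The part of oligodendrocyte transcripts in the Ctnna3 of amyloid-DAM was not tested, and a nucleus without a marker UMI can still hold such transcripts.

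Across the cell types of the 4 libraries, the leading genes differed in how much other cells held of them. The comparison left out the other subpopulations of microglia and macrophages, so that it does not show a gene to be particular to amyloid-DAM. Outside the microglia and macrophages, the highest mean level of Lpl was 7.22 CPM, in newly formed oligodendrocytes, where it reached 14.9 CPM in 1 library. Ank had its next highest level in mature oligodendrocytes, at 468 ± 81.4 CPM, and Cacna1a in neurons, at 923 ± 70.2 CPM, followed by oligodendrocyte precursors at 575 CPM. Both were below the amyloid-DAM means of 1882 ± 109 CPM and 1803 ± 119 CPM. Ctnna3, in contrast, was lower in amyloid-DAM, at 1403 ± 139 CPM, than in mature oligodendrocytes.

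**Figure D3:**
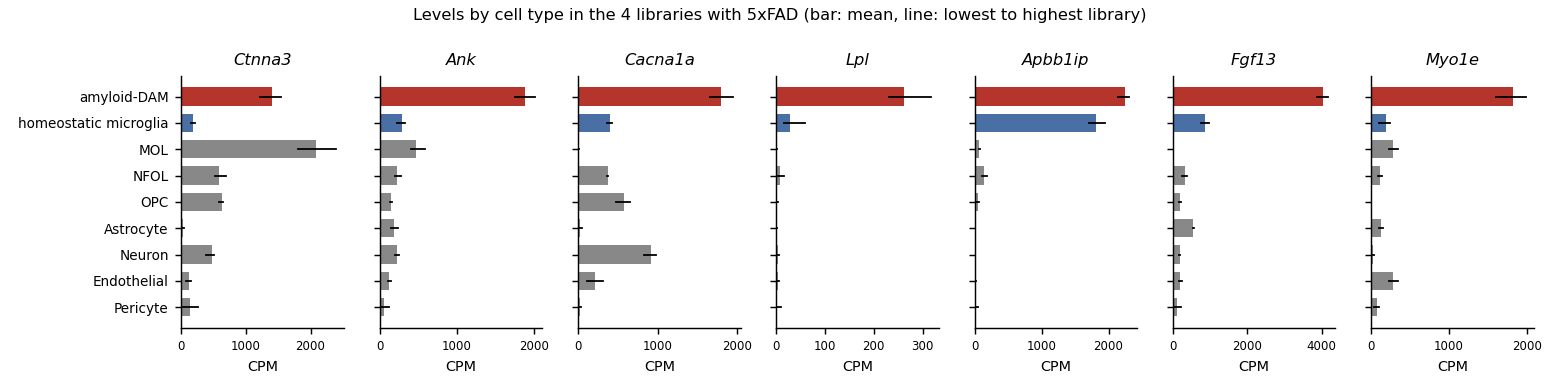
Mean level in CPM (bar, with a line from the lowest to the highest of 4 libraries) of the 5 markers, Fgf13 and Myo1e in amyloid-DAM, homeostatic microglia and other cell types that the authors named in the libraries with 5xFAD. MOL stands for mature oligodendrocytes, NFOL for newly formed oligodendrocytes and OPC for their precursors, and Ctnna3 peaks in MOL at 2090 CPM with amyloid-DAM next at 1403 CPM, whereas among the types shown Ank, Cacna1a and Lpl are highest in amyloid-DAM.

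Over the transcriptome, more genes were higher than lower in amyloid-DAM. Of 4917 genes that passed the filter, 79 (1.61%) were at least 2-fold higher than in homeostatic microglia in each of the 4 libraries and 23 (0.468%) at least 2-fold lower. Without regard to size, 821 genes (16.7%) were higher in each library and 665 (13.5%) lower in each. The median log2 fold change of all genes tested was 0.03. Among the 79 genes 70 were protein coding, and among the 23 genes 18.

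**Figure D4:**
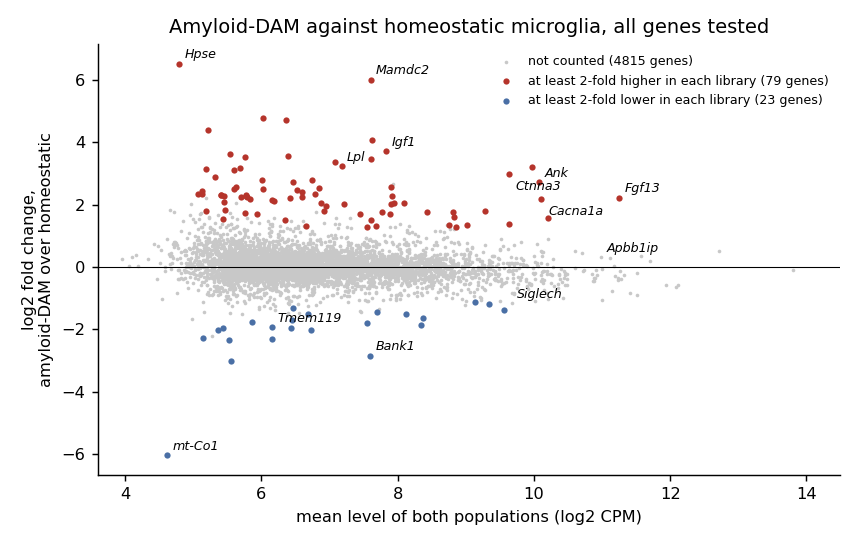
Log2 fold change of amyloid-DAM over homeostatic microglia against the mean level of both populations (log2 CPM) for the 4917 genes tested, where red points mark the 79 genes at least 2-fold higher and blue points the 23 genes at least 2-fold lower in each library. The red points reach higher fold changes than the blue points reach lower ones, apart from mt-Co1.

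The 12 genes with the largest fold changes are given by the role of their products, an order chosen for description after their values were seen. Among the 12, 4 encode secreted factors. Igf1, the insulin-like growth factor, was at 371, 452, 361 and 518 CPM in amyloid-DAM and gave 6, 8, 8 and 1 UMIs in homeostatic microglia (log2 fold change 3.72 ± 0.23). Csf1, a ligand of the receptor on which microglia depend for survival, was at 235, 268, 195 and 297 CPM against 16.2, 5.80, 56.7 and 13.5 CPM (3.37 ± 0.29, and 4.32 without Cnp-/-;5xFAD replicate 1). Both were high in all 4 amyloid-DAM profiles, and no homeostatic profile came near. The chemokine gene Ccl4 was at 99.9, 307, 87.2 and 124 CPM, with 5xFAD replicate 2 well above the other libraries, and gave 2, 4, 0 and 3 UMIs in homeostatic microglia (3.56 ± 0.37). Dkk2, a secreted regulator of Wnt signalling, was at 139, 218, 133 and 145 CPM and gave 4 UMIs in all homeostatic profiles together (4.71 ± 0.42, and 5.29 without Cnp-/-;5xFAD replicate 1). Among nuclei without a UMI of the oligodendrocyte markers the fold change of Dkk2 was 3.74. Every homeostatic profile lay below every amyloid-DAM profile for these genes, which their selection as at least 2-fold higher in each library largely fixed.

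Of the 12 genes, 3 encode surface receptors. Lilrb4a, an inhibitory immunoglobulin-like receptor, was at 417, 335, 357 and 373 CPM and gave 2, 4, 4 and 6 UMIs in homeostatic microglia (4.08 ± 0.26). The gene has a close paralogue, so its reads could be split or lost in counting. Itgax, the integrin subunit CD11c, was at 85.6, 128, 108 and 76.0 CPM against 1, 4, 0 and 1 UMIs (3.53 ± 0.47, and 4.46 without 5xFAD replicate 2). Cd300lf, a lipid-binding receptor of myeloid cells, was at 125, 44.7, 99.6 and 76.0 CPM against 2, 0, 2 and 1 UMIs (3.63 ± 0.50). For these 3 receptors every amyloid-DAM profile lay above every homeostatic profile, again largely fixed by the selection.

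The other 5 of the 12 genes have varied roles. Hpse, the heparanase that cleaves heparan sulfate, gave 18, 13, 14 and 4 UMIs in amyloid-DAM and 0 in all 4 homeostatic profiles, and was at least 14.4-fold higher (floor of 3 counts over the group), or at least 9.09-fold without 5xFAD replicate 1. Mamdc2, a proteoglycan of the matrix, was at 414, 346, 374 and 401 CPM and gave 1 UMI in each homeostatic profile, a pooled ratio of 71.7 (95% counting interval 27.8–265). Rab7b, a GTPase of late endosomes, was at 57.1, 61.4, 54.0 and 110.5 CPM. Its homeostatic UMIs numbered 2, both in Cnp-/-;5xFAD replicate 2, for a pooled ratio of 24.6 (6.51–208.5), or at least 11.3-fold without that library, so that the size of this difference rests on very few molecules. Tmem163, a zinc transporter of vesicles, was at 389, 324, 361 and 366 CPM against 32.4, 40.6, 39.7 and 13.5 CPM (3.46 ± 0.24). Baiap2l2, which bends membranes and binds actin, was at 125, 140, 150 and 89.8 CPM and gave 3 homeostatic UMIs, a ratio of 32.0 (10.7–157.5). All 12 genes, those of the preceding paragraphs included, passed the filter on low counts only through their counts in amyloid-DAM.

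Further genes, chosen after their values were seen for their high counts, gave precise differences. Fgf13, an intracellular member of the fibroblast growth factor family that binds sodium channels, was at 4048, 4046, 3869 and 4158 CPM against 879, 974, 838 and 750 CPM, a log2 fold change of 2.22 ± 0.07. Myo1e, an unconventional myosin of phagocytic cups, was at 1598, 1859, 1989 and 1865 CPM against 211, 244, 198 and 108 CPM (3.21 ± 0.11). A UMI of Fgf13 was found in 88.9% of amyloid-DAM nuclei and 48.3% of homeostatic nuclei, and one of Myo1e in 79.3% and 18.9%. Both shares in amyloid-DAM were above those of Ctnna3 and Lpl and below that of Apbb1ip (89.05%), and that of Myo1e was also below Cacna1a (84.45%).

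The promoters of 4 of the leading genes are shown because the genes were higher together in each library. The sequences are those of RefSeq for GRCm38.p6, from 250 bases before to 50 bases after the start of the gene, and capitals mark a match to a searched motif on either strand. Searched were CACGTG (an E-box of the CLEAR type), TCANGTGA (bound by the MiT family, overlapping CACGTG where N is C), TGANTCA (bound by AP-1) and GAGGAAGT (bound by PU.1).
Hpse, chr5:100719667-100719966, minus strand: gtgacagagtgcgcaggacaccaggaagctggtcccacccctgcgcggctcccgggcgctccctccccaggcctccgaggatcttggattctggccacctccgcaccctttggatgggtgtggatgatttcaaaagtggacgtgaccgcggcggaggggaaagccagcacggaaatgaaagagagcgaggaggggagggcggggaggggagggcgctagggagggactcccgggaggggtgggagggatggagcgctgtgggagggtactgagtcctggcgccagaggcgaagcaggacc
Dkk2, chr3:132085042-132085341, plus strand: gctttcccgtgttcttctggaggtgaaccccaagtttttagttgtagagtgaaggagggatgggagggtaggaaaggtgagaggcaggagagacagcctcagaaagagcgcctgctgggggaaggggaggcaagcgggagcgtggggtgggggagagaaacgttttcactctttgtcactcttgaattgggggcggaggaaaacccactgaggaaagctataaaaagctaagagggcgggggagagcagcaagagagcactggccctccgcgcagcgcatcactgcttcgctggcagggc
Igf1, chr10:87860861-87861160, plus strand: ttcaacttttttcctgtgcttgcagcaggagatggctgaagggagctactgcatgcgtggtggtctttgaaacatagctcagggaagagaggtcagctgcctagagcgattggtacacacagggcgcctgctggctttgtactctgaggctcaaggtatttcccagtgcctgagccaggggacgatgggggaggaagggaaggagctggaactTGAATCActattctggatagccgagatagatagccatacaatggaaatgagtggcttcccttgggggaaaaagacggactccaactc
Cd300lf, chr11:115133943-115134242, minus strand: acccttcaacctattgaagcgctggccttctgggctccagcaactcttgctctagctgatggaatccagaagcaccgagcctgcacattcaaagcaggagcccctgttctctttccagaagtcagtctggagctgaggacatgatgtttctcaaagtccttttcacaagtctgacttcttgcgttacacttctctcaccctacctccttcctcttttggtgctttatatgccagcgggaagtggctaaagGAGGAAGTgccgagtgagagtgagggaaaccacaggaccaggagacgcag
The window of Igf1 held 1 match to the AP-1 motif at base 214 and that of Cd300lf 1 match to the PU.1 motif at base 251, counted from the 5′ end of the window. Those of Hpse and Dkk2 held no match. The RefSeq start of Igf1 lies inside the gene as GENCODE annotates it, which begins at 87858265. Over 27025 genes with a promoter, CACGTG was found in 8.09%, TCANGTGA in 4.78%, TGANTCA in 8.97% and GAGGAAGT in 3.69%. Over the 3919 genes tested that had a promoter, the shares were 12.6%, 5.79%, 5.79% and 4.75%. Of the 55 higher genes with a promoter in the set, 6, 1, 4 and 6 held these motifs, respectively, and of the 15 lower genes 1, 1, 4 and 2. For CACGTG and TGANTCA the share among the higher genes lies between that of all promoters and that of the genes tested. For GAGGAAGT it lies above both, at 10.9%, and for TCANGTGA below both, at 1.82%. Among the 15 lower genes the shares were 6.67%, 6.67%, 26.7% and 13.3% in the same order of motifs. These shares rest on few genes, and no test was made. A match is a run of letters and not a measured binding site.

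Genes known from the TREM2-dependent stage of the DAM state were higher in amyloid-DAM than in homeostatic microglia, and those of the earlier stage were higher in part. Of 24 listed genes of the TREM2-dependent stage, 23 were matched in the table and 17 passed the filter. All 17 were higher in each library and 8 were at least 2-fold higher in each, beside 16.7% and 1.61% of all genes tested. Their median log2 fold change was 1.21, against 0.03 over all genes tested. The 8 genes were Axl, a receptor that recognizes phosphatidylserine through bridging proteins, Lpl, Csf1, Itgax, Lilrb4a, Igf1, Ank and Hif1a. Of the 6 genes left out by the filter, Cst7, a cathepsin inhibitor, gave 38 UMIs against 3, Gpnmb, a glycoprotein of lysosomes and melanosomes, gave 33 against 1, and Spp1 (osteopontin) gave 6 against 4. Of the 8 genes of the earlier, TREM2-independent stage 6 passed the filter, 3 were higher in each library (Ctsb, Ctsd and Apoe) and 0 at least 2-fold, with a median of 0.48. Tyrobp (0.26), B2m (0.23) and Timp2 (0.21) were not higher in each library, and Fth1, below the filter, gave 29 UMIs against 32. These lists describe the DAM state as known from elsewhere, but they were chosen with earlier results of these data known. Lpl and Ank are also among the given markers of the population. Axl, Lpl, Csf1, Itgax, Lilrb4a and Igf1 passed the filter only through their counts in amyloid-DAM. The direction of the lists here is no independent evidence for the DAM state.

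Lipid genes were higher in part. Of 29 listed genes of lipid transport, storage and cholesterol synthesis 14 passed the filter, with 8 higher and 1 lower in each library, beside 16.7% and 13.5% of all genes tested, and a median of 0.66. At least 2-fold higher in each library were 3 of the 14, beside 1.61% of all genes tested, among them Lpl and the lipid droplet coat protein Plin2 (1.53). Lpl and Plin2 passed the filter only through their counts in amyloid-DAM. The gene lower in each library was Lrp1, an endocytic receptor for lipoproteins and amyloid. Of the 29 genes 8 were at 0 UMIs, so the list was read only in part.

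Lysosomal genes were higher in part. Of the listed genes, 30 of 35 passed the filter and 11 were higher and 4 lower in each library, but 0 reached 2-fold in each, and the median was 0.19. Over all genes tested 16.7% were higher and 13.5% lower in each library. The count of lower genes was near this background, and that of higher genes lay above it. Among those with positive values were the cysteine protease Ctsb (1.21), the lysosomal membrane proteins Cd68 (1.17) and Cd63 (1.06), the cathepsin Ctsz (0.80), the acid lipase Lipa (0.80) and the aspartic protease Ctsd (0.73). The proteases Lgmn and Ctss had values of -0.56 and -0.48. Atp6v0d2, a subunit of the proton pump, did not pass the filter, with 33 UMIs in amyloid-DAM and 0 in homeostatic microglia.

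Phagocytic and adhesion receptors went both ways. Of 31 listed genes 25 passed, 8 were higher and 9 lower in each library, beside 16.7% and 13.5% of all genes tested, and the median was -0.29. Axl, Itgax, Cd300lf and Myo1e, 4 of the 25, were at least 2-fold higher in each library, beside 1.61% of all genes tested. Axl, Itgax and Cd300lf passed the filter only through their counts in amyloid-DAM. Lower were the engulfment adaptor Elmo1 (-0.90), the exchange factor Dock10 (-0.82), the integrin Itgam (-0.75), which encodes CD11b, and the sialic acid receptor Cd33 (-1.02). Complement genes, of which 8 of 13 passed, had a median of -0.25, with 2 higher and 2 lower in each library and Itgax alone at least 2-fold higher.

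Antigen presentation and interferon genes were higher on balance. Of 26 listed genes 25 were matched in the table and 12 passed, 8 were higher and 0 lower in each library, beside 16.7% and 13.5% of all genes tested, and the median was 0.51. The interferon-induced genes Oasl2 (2.56, 68 UMIs against 10) and Ifi204 (2.26, 78 against 14) were at least 2-fold higher in each library, beside 1.61% of all genes tested. Both passed the filter only through their counts in amyloid-DAM. The MHC class II genes were near the limit of detection and did not pass, with 3 against 2 UMIs for H2-Aa, 5 against 1 for H2-Ab1 and 16 against 4 for Cd74, the invariant chain.

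Of 42 listed transcription factors 29 passed, 9 were higher and 7 lower in each library, beside 16.7% and 13.5% of all genes tested, and the median was that of all genes, 0.03. Hif1a, the oxygen-regulated factor, was the 1 of these 29 genes at least 2-fold higher in each library (1.76 ± 0.15, beside 1.61% of all genes tested), although it overlaps the antisense gene Gm15283, which was higher too. Among the others with positive values were Mitf (0.80), a regulator of lysosomal genes, Arid5b (0.79) and Irf8 (0.45). Sall1, a factor of microglial identity, was at -0.89, Maf at -0.92 and Mef2a at -0.47. Atf3, a stress-induced factor, did not pass the filter and gave 28 UMIs against 3.

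Homeostatic genes were lower, most by less than 2-fold. Of 20 listed genes 19 passed the filter, 17 were lower in each library, beside 13.5% of all genes tested, and 1, the factor Mef2c (0.27), was higher in each. The median log2 fold change was -0.54. At least 2-fold lower in each library were 2 of the 19, beside 0.468% of all genes tested. These were Tmem119, a membrane protein of microglia, and Ecscr, known from endothelial cells. Tmem119 was at 25.0, 50.2, 12.5 and 34.5 CPM in amyloid-DAM and at 101, 128, 119 and 101 CPM in homeostatic microglia (-1.94 ± 0.33), with no overlap. Ecscr gave 8 UMIs against 63 (-3.03 ± 0.48).

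Outside the list, the B cell scaffold gene Bank1 was lowest among genes with many counts, at 60.6, 39.1, 16.6 and 76.0 CPM against 356, 273, 334 and 392 CPM (-2.85 ± 0.22). The integrin subunit Itga9 was at 143, 173, 145 and 96.7 CPM against 559, 493, 499 and 493 CPM (-1.86 ± 0.15). Both were low in all 4 amyloid-DAM profiles. The other genes among the 12 with the most negative fold changes were Cass4 (-2.36, and -3.03 without 5xFAD replicate 2), Tspan18 (-2.31), Gm43821 (-2.27), Crybb1 (-2.03), Myo18b (-2.01), Ggta1 (-1.97), Gm29488 (-1.97), which lies within Srgap2 on the same strand, and mt-Co1. The mitochondrial gene mt-Co1 was at 0 UMIs in amyloid-DAM and gave 2, 20, 2 and 9 UMIs in homeostatic microglia, at least 12.5-fold lower, and at least 5.05-fold lower without 5xFAD replicate 2. The homeostatic profiles of 5xFAD replicate 2 and Cnp-/-;5xFAD replicate 2 held most mitochondrial UMIs, with 8, 133, 7 and 37 UMIs of 13 genes over the 4 libraries against 6, 15, 8 and 7 in amyloid-DAM. Mitochondrial transcripts do not arise in the nucleus, and the part of RNA from outside nuclei was not tested.

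**Figure D5:**
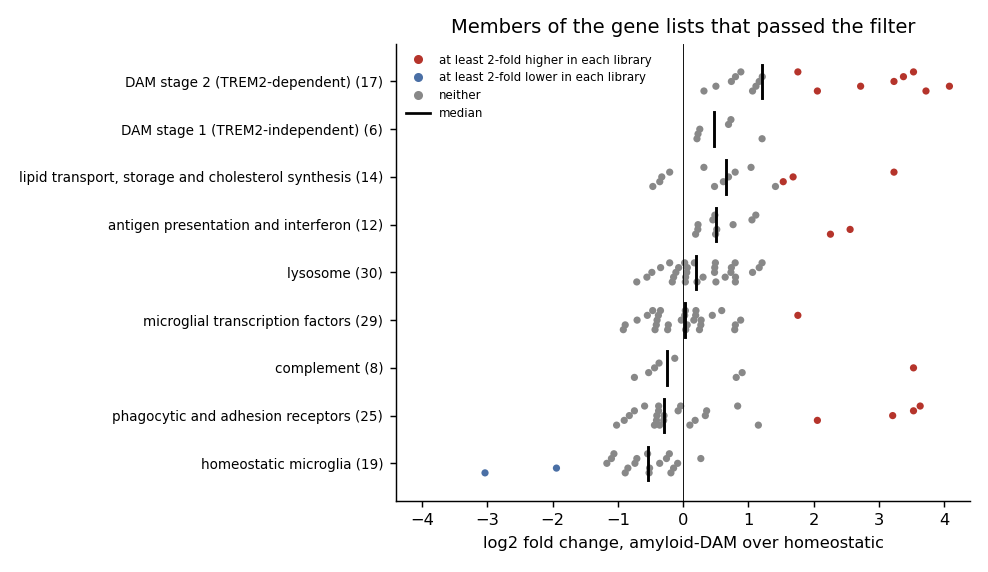
Log2 fold change of amyloid-DAM over homeostatic microglia for each member that passed the filter, by gene list, with the number of members in brackets and a bar at the median. Among the lists shown, which leave out the given markers and the markers of other cells, TREM2-dependent DAM genes have the highest median (1.21) and homeostatic genes the lowest (-0.54).

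A small number of amyloid-DAM nuclei held transcripts of mitotic genes. None of the 21 listed cell cycle genes passed the filter, but together they gave 222 UMIs in amyloid-DAM and 64 in homeostatic microglia. Top2a, the topoisomerase of dividing cells, gave 40 UMIs against 2, the centromere proteins Cenpe 33 against 2 and Cenpf 26 against 1, the proliferation marker Mki67 18 against 1 and the mitotic kinesin Kif11 17 against 0. Genes of DNA replication in the same list were mostly about equal, with 18 UMIs in each population for Tyms and 8 in each for Pcna. Mcm2 gave 3 in each, Mcm6 11 against 14 and Mcm3 11 against 9, while Mcm5 gave 4 against 1. At least 3 of the 21 genes, a limit set after seeing the data, were found in 5, 3, 2 and 1 amyloid-DAM nuclei, together 11 of 566 (1.94%, Wilson 95% interval 1.09–3.45%). The number among homeostatic nuclei was 0 of 609, with a Wilson upper limit of 0.627% (0.493% by a floor of 3 counts). In the same libraries the counts were 2 of 177 (1.13%, 0.310–4.03%) in microglia that the authors labelled MyTE and 1 of 133 (0.752%, 0.133–4.14%) in macrophages, whose intervals overlap that of amyloid-DAM. All these intervals pool the nuclei of 4 libraries and cover counting error only. Within each library, the intervals of amyloid-DAM and homeostatic nuclei overlapped, as with 1.17–6.20% against 0.0–1.89% in 5xFAD replicate 1. The 11 nuclei were deeper than the rest, with a median of 2323 UMIs against 1300.5 for the population. No phase was assigned to nuclei.

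Among markers of other cells, 2 genes stood out in the list of higher genes, both named after their values were seen. Flt1, a receptor for vascular endothelial growth factor, gave 167 UMIs in amyloid-DAM and 37 in homeostatic microglia (log2 fold change 1.94), at 194 ± 45.4 CPM against 53.1 ± 27.1 CPM (SD, n = 4). In endothelial cells it was at 5062 CPM. The other markers of endothelial and mural cells lay below the filter and went both ways, with 4 UMIs against 0 for the junction gene Cldn5, 17 against 9 for Ebf1, 10 against 25 for Pecam1 and 1 against 8 for Mecom. Colec12, a scavenger receptor listed among border macrophage markers, was higher by a log2 fold change of 3.15. It passed the filter only through its counts in amyloid-DAM. From the same list Dab2 was higher too (0.82), and F13a1 gave 13 UMIs against 7, Ms4a7 8 against 0 and Cd163 5 against 0. Mrc1, the mannose receptor of border macrophages, gave 13 UMIs against 9, and Stab1 was lower (-1.80).

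Within amyloid-DAM, no difference of the marker genes between Cnp-/-;5xFAD and 5xFAD could be detected with 2 libraries each, and no gene passed the test. Of 4917 genes, 0 (0.0%) passed edgeR's quasi-likelihood test at a Benjamini-Hochberg adjusted p of 0.05 between Cnp-/-;5xFAD and 5xFAD, 163 (3.32%) had an unadjusted p below 0.05, and DESeq2's Wald test called 1 gene and found 67 at an unadjusted p below 0.05. The marker genes had log2 fold changes (± SE) of -0.089 ± 0.135 for Ctnna3, 0.018 ± 0.116 for Ank and -0.103 ± 0.108 for Cacna1a. Those of Lpl and Apbb1ip were 0.172 ± 0.331 and -0.037 ± 0.096. Each was smaller in size than its SE. Of the 79 genes higher in amyloid-DAM, 1 had an unadjusted p below 0.05, and their median genotype difference was 0.03. For the 23 lower genes the median was -0.21, also with 1 such gene. None of the gene lists held a gene past the adjusted threshold. The genotype test also drew on the homeostatic profiles of the same libraries, treated as independent of the amyloid-DAM profiles. With amyloid-DAM profiles alone 0 genes passed.

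Of the 14 lipid genes that passed the filter, 3 had an unadjusted p below 0.05, beside 3.32% of all genes tested, and the median genotype difference of the list was 0.006. Other lists held such genes too, among them 2 of 19 homeostatic genes and 3 of 12 microglial markers. Apoe, the apolipoprotein, was at 246 and 296 CPM in 5xFAD and at 390 and 981 CPM in Cnp-/-;5xFAD, with replicate 2 of Cnp-/-;5xFAD far above the rest (log2 fold change 1.31 ± 0.42, unadjusted p = 0.0103 and Benjamini-Hochberg adjusted p = 1.0 in edgeR's quasi-likelihood fit). Abca1, the cholesterol exporter, was at 325 and 313 CPM in 5xFAD and at 502 and 532 CPM in Cnp-/-;5xFAD (0.71 ± 0.22, unadjusted p = 0.00755 and adjusted p = 1.0, edgeR). Both Cnp-/-;5xFAD libraries were above both 5xFAD libraries for these genes, and neither passed the adjusted threshold. The difference of Apoe was 0.58 without Cnp-/-;5xFAD replicate 2 and 1.87 without Cnp-/-;5xFAD replicate 1, and homeostatic microglia were also highest in Cnp-/-;5xFAD replicate 2, with 170, 267, 221 and 480 CPM. Of the other lipid genes, Lrp1 differed by -0.52 (edgeR unadjusted p = 0.0186) and the exporter Abcg1 by 0.12 (edgeR unadjusted p = 0.746). Apoe is also abundant in astrocytes, at 1994 CPM, and the part of astrocyte transcripts was not tested. The DAM receptor Trem2 differed by -0.05 ± 0.32, less than its SE.

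The gene that came closest to the threshold, Pde4d, which encodes a phosphodiesterase of cyclic AMP, was named after its values were seen. It gave 55 and 17 UMIs in 5xFAD and 0 and 0 in Cnp-/-;5xFAD (Benjamini-Hochberg adjusted p = 0.0937 in edgeR's quasi-likelihood fit, past 0.05 in DESeq2's Wald test). Homeostatic microglia showed the same order, with 51, 21, 1 and 1 UMIs, so that the difference between libraries was not particular to amyloid-DAM.

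For 3 of 4917 genes (0.061%), the genotype difference itself differed between amyloid-DAM and homeostatic microglia (interaction in edgeR's quasi-likelihood test, library as block, adjusted p below 0.05, with 246 genes at an unadjusted p below 0.05). Cadm1, a cell adhesion molecule, was at 1684, 1390, 1474 and 1519 CPM in amyloid-DAM and at 680, 650, 997 and 1047 CPM in homeostatic microglia. The log2 ratio of both subpopulations fell from 1.31 and 1.09 in 5xFAD to 0.56 and 0.53 in Cnp-/-;5xFAD (interaction -0.67 ± 0.15, edgeR adjusted p = 0.0316). The levels in homeostatic microglia, more than those in amyloid-DAM, separated the genotypes. Clip2, a linker of microtubules, was at 143, 123, 183 and 228 CPM against 211, 157, 73.6 and 87.8 CPM (interaction 1.81 ± 0.44, edgeR adjusted p = 0.0498). Its ratio changed sign, from lower in amyloid-DAM of both 5xFAD libraries to higher in both Cnp-/-;5xFAD libraries. Malat1, an abundant nuclear non-coding RNA, had log2 ratios of -0.50, -0.09, -0.11 and 0.30 (interaction 0.38 ± 0.08, edgeR adjusted p = 0.00658), with values of 5xFAD replicate 2 and Cnp-/-;5xFAD replicate 1 almost equal. Its ratios within each genotype lay further apart than this SE, which rests on a dispersion estimated over many genes. All 3 calls were lost without the library block, in profiles thinned to the smallest total and in DESeq2's Wald test, and each was lost when 5xFAD replicate 1 or Cnp-/-;5xFAD replicate 1 was left out.

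A few of the leading genes, found at a lower level in homeostatic microglia, were there higher in libraries with 5xFAD than without, while most overlapped. Ctnna3 was at 9.70 and 63.3 CPM in homeostatic nuclei of WT, at 0 in both Cnp-/- libraries, and at 174, 151, 193 and 203 CPM in the libraries with 5xFAD. Cacna1a was at 0 and 12.7 CPM in WT and 162 and 198 CPM in Cnp-/-, and the libraries with 5xFAD held 417, 429, 363 and 378 CPM. For both genes all 4 libraries with 5xFAD lay above all 4 without. The share of all genes with such a separation was not counted. Whether Ctnna3 and Cacna1a stand out in this from other genes is therefore not known, and the separation is a description only. Tmem163 was at 0 UMIs in the 4 libraries without 5xFAD and at 13.5 to 40.6 CPM with it. Mamdc2 was at 0 UMIs without 5xFAD and gave 1 UMI in each library with it. That is 4 of 743929 UMIs with 5xFAD against 0 of 489418 without. By the floor on counts used for Hpse, its level with 5xFAD was at least 0.877-fold that without. This bound lies below 1, so that these counts do not show a difference for Mamdc2. All others of the 12 genes with the largest fold changes overlapped between libraries with and without 5xFAD. Lpl overlapped too, at 16.2 to 58.0 CPM with 5xFAD and 0 to 24.8 CPM without, and so did Myo1e. Ank overlapped, with 53.3 and 12.7 CPM in WT, 211 and 272 CPM in Cnp-/- and 227 to 328 CPM with 5xFAD. The means of Fgf13 were 818 ± 302 CPM without and 860 ± 93.2 CPM with 5xFAD (SD, n = 4 each), with a range of 392 to 1102 CPM without, and those of Apbb1ip were 1790 ± 191 and 1814 ± 100.1 CPM, so that both genes overlapped. The homeostatic nuclei without 5xFAD numbered 373, with 489418 UMIs.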

How the data were processed

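Nuclei of 8 libraries, 2 for each of 4 genotypes, were sequenced on a droplet platform. The authors aligned the reads with Cell Ranger 6.1.2 to mm10, removed ambient RNA with CellBender, which can set low counts to 0, removed nuclei with few genes or transcripts and clustered them with Seurat. The deposited values are UMI counts per gene and nucleus, without normalization, with the authors' labels of cell type and subpopulation. The deposited percent of mitochondrial counts per nucleus was read and no result uses it. How doublets were treated is not given in the sources used here, and no doublet caller was run.

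UMI counts were summed per library over amyloid-DAM and over homeostatic nuclei of the 4 libraries with 5xFAD (8 profiles). Genes were filtered by filterByExpr and profiles scaled by TMM in edgeR 4.0.16 (R 4.3.3). Log2 fold changes between subpopulations were fitted with the library as a block and are given without p-values. Each SE comes from the edgeR fit, with a dispersion estimated over many genes, and can be smaller than the spread over libraries. For the 12 higher genes named, the SD of the log2 ratios over libraries was 0.274 to 1.397. A gene was counted as higher or lower if it differed at least 2-fold the same way in each library (prior count 0.5). Genotypes within amyloid-DAM, and the interaction of genotype and subpopulation with the library as a block, were tested by edgeR's quasi-likelihood test (two-sided, Benjamini-Hochberg threshold 0.05). The genotype test used all 8 profiles, with 1 mean per subpopulation and genotype and no library block. It thus treated the amyloid-DAM and homeostatic profiles of a library as independent, to gain residual degrees of freedom. A fit of the amyloid-DAM profiles alone was an alternative. Shares were compared by exact permutation tests over libraries (SciPy 1.17.1). The fits were tested on simulated data. Profiles of 144790 to 280351 UMIs make genes below the filter imprecise.

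Named were the 12 genes with the largest and the 12 with the smallest log2 fold change among those counted, the interaction genes past the threshold, and members of gene lists. The members and the lists were chosen with earlier results of these data known. Alternatives were DESeq2 size factors and DESeq2 1.42.0, no filter, thinned profiles, nuclei with at least 1000 UMIs, other fold and prior settings, blocks added or removed, other denominators and each library left out. Gene positions were read from GENCODE for GRCm38. Results for some genes are not reported here.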

Additional observations from a re-analysis of the deposited data

Results flagged for a closer look

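For 3 genes the genotype difference in amyloid-DAM differed from that in homeostatic microglia by the interaction test of edgeR. On the log2 scale this difference was 1.81 for Clip2, -0.67 for Cadm1 and 0.38 for Malat1. For Clip2 the ratio of amyloid-DAM to homeostatic microglia was below 1 in both 5xFAD libraries and above 1 in both Cnp-/-;5xFAD libraries, and for Cadm1 it was lower in both Cnp-/-;5xFAD libraries than in both 5xFAD libraries.

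Nuclei labelled amyloid-DAM were also present in libraries that carry no amyloid transgene, outside the comparisons between subpopulations. They made up 5.15% of microglia and macrophage nuclei in Cnp-/- replicate 1 (14 nuclei) and 3.65% in Cnp-/- replicate 2 (5 nuclei), above the 0.503% and 0.0% in WT.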

How the results depend on the processing

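The 79 higher and 23 lower genes became 157 and 40 without a filter on low counts and 163 and 105 with a threshold of 1.5-fold. Leaving out 1 library gave 104 to 145 higher and 32 to 44 lower genes, by construction with 1 library fewer to pass, with over 1.5 times the original count without 5xFAD replicate 2 (145 and 44), Cnp-/-;5xFAD replicate 1 (124 and 35) or Cnp-/-;5xFAD replicate 2 (122 and 40). Lower genes numbered 15 among nuclei with at least 1000 UMIs and 11 among nuclei without oligodendrocyte markers, where the cause was not tested. Higher genes numbered 75 and 54 in these settings. Without Cnp-/-;5xFAD replicate 2, which held the only homeostatic UMIs of Rab7b, that gene was at least 11.3-fold higher, and the fold changes of Itgax, Csf1, Dkk2 and Cass4 each moved by over 1.5-fold without 1 library. Between genotypes within amyloid-DAM, 8 genes passed without the filter, among them Apoe (edgeR adjusted p = 6.83e-05), and 1 gene, Pde4d, passed among nuclei with at least 1000 UMIs, with the replicate block and in DESeq2's Wald test. The cause was not tested. Leaving out a library gave 0 calls each time. The number of interaction calls fell to 0 without the filter, with thinned profiles, without the library block and in DESeq2's Wald test, to 1 among nuclei with at least 1000 UMIs and to 0 to 1 when a library was left out (0 without either replicate 1, Malat1 without 5xFAD replicate 2, and without Cnp-/-;5xFAD replicate 2 another gene, Plxdc2, with all 3 reported genes lost). Without a library the adjusted p of Clip2 was 0.242 to 0.975 and that of Cadm1 0.179 to 0.975. The difference in share between genotypes turned to 2.43 percentage points relative to amyloid-DAM and homeostatic nuclei, and lay between -0.79 and -0.07 without 1 library, near 0 without 5xFAD replicate 1 or Cnp-/-;5xFAD replicate 2. Small genotype differences of single genes changed sign when 1 library was left out. Trem2 ranged from -0.45 to 0.34, with 0.13 without 5xFAD replicate 2 and 0.34 without Cnp-/-;5xFAD replicate 1. Ank ranged from -0.073 (without 5xFAD replicate 2) to 0.116, Ctnna3 from -0.263 to 0.059 and Lpl from -0.011 to 0.372, the sign of the last 2 genes turning without Cnp-/-;5xFAD replicate 2. Whether libraries with the same replicate number share a batch was not tested. Their deviations from the group means correlated at 0.0226 in amyloid-DAM and -0.0163 in homeostatic microglia. Where 1 library of a genotype was left, it was assumed to vary like the other groups. Depth limits genes below the filter, and 2 libraries per genotype limit every comparison of genotypes.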

Other observations

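The 19 amyloid-DAM nuclei of Cnp-/- libraries, with 27121 UMIs in all, shared some of the leading genes with amyloid-DAM of 5xFAD libraries and lacked others. Fgf13 gave 95 UMIs, or 3503 CPM (95% counting interval 2834–4282 CPM), and Myo1e 38 UMIs, or 1401 CPM (991.5–1923 CPM). Both intervals reach into the range of the 4 amyloid-DAM profiles with 5xFAD. Ank gave 14 UMIs (516 CPM) and Cacna1a 20 UMIs (737 CPM), both below that range. Ctnna3 gave 0 UMIs, where the mean level of the libraries with 5xFAD corresponds to 38.1 UMIs at this depth, and Tmem163 gave 0 where it corresponds to 9.76. At 0 UMIs the upper limit of the 95% counting interval is 136.0 CPM (110.6 CPM by a floor of 3 counts), below the levels of both genes in each library with 5xFAD. These limits treat UMIs as independent, whereas Ctnna3 was unevenly spread over nuclei. Igf1 gave 1 UMI, where 11.5 correspond to the mean. Lpl gave 6 UMIs, all in replicate 1, and Lilrb4a gave 9. Of the homeostatic genes, P2ry12 gave 7 UMIs (258 CPM) and Tmem119 gave 0. Most of these UMIs came from the 14 nuclei of replicate 1, and the nuclei of a library are not replicates, so that no test was made.

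The genes at least 2-fold higher in amyloid-DAM were longer than the genes tested, with a median length of 61.0 kb for 78 genes with a length against 44.1 kb, and the 23 lower genes had a median of 35.6 kb. Among the higher genes, chosen here after their values were seen, were the odorant receptor genes Olfr110 and Olfr111, neighbouring paralogues between which reads may be divided.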
